A study of Homo sapiens with 9 samples.

Results

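The clustered protocadherins are the genes of 3 neighbouring clusters on chromosome 5, alpha, beta and gamma. They were taken as the genes whose symbol has the form PCDHA, PCDHB or PCDHG with a C-type letter or a number and whose locus is on chromosome 5. This gave 55 of 57751 genes in the FPKM tables (fragment counts scaled to the gene's length and the library's size), and 52 of them also had read counts (16 alpha, 18 beta and 18 gamma). PCDHGA4, PCDHGB3 and PCDHGA9 were analysed in FPKM only. All samples were A549, a human lung adenocarcinoma cell line of epithelial type bought from ATCC, grown for 7 days with DMSO, with GSK591 at 1 µM or with MS023 at 1 µM, in 3 libraries each. GSK591 inhibits PRMT5, the main enzyme of symmetric arginine dimethylation, and MS023 inhibits the type I PRMTs, which place asymmetric dimethylarginine. The labels call the libraries triplicates and do not say whether they came from separate cultures, so p-values reflect only how these libraries scatter, which may be technical. Treated plates were seeded with more cells than control plates (0.4 against 0.2 on the labels' scale), so seeding and treatment cannot be told apart.

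Protocadherins of these clusters are cadherin-related adhesion proteins of the cell surface, best known from neurons, where each cell uses its own combination of them and like molecules on neighbouring membranes bind each other. In the alpha and gamma clusters each variable exon has its own promoter and encodes the extracellular, transmembrane and proximal cytoplasmic part. It is spliced to constant exons that all genes of the cluster share, whereas each beta gene is a single exon. The C-type genes (PCDHAC1, PCDHAC2, PCDHGC3, PCDHGC4 and PCDHGC5) lie at the ends of the alpha and gamma clusters and are expressed more uniformly among neurons than the others. Most promoters of the clusters hold a conserved element with the core CGCT, and the insulator protein CTCF and cohesin bind at promoters and enhancers of the locus.

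In hg19, the build of the deposited files, the alpha cluster spanned positions 140165875 to 140391936 of chromosome 5, the beta cluster 140430978 to 140627799 and the gamma cluster 140710251 to 140892546. All 16 alpha and all 21 gamma loci overlapped another member and 0 of 18 beta loci did. 14 alpha loci ended at the same base, and so did 19 gamma loci. In the GENCODE 29 annotation, used by gene identifier only, 15 alpha genes shared exons of 59 and 89 bases and 22 gamma genes shared exons of the same lengths. A much longer exon was shared as well, of 2718 bases by 14 alpha genes and of 2033 bases by 21 gamma genes. In the count table the shared exons had not been counted for every gene: in DMSO replicate 2 PCDHA8 and PCDHA13 had 0 counts while PCDHAC2 had 589, and PCDHGC5 had 0 while PCDHGC3 had 388. The sources used here give neither the strand setting nor how reads in shared exons were assigned, so counts of alpha and gamma members are uncertain. In total RNA, reads on a downstream variable exon and reads on unspliced RNA started further upstream cannot be told apart. Beta genes are near-identical copies in places, so their counts are uncertain too. PCDHA14, PCDHB17 and PCDHB18 are annotated as transcribed pseudogenes.

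The promoters of the members on which the results turn are shown first, since each variable gene is switched on from its own. RefSeq promoter windows (GRCh38.p14, 250 bases before to 50 after the annotated start) matched 46 of the 55 members by symbol. PCDHA3, PCDHA14, PCDHA13, PCDHB6, PCDHB17, PCDHB11, PCDHB18, PCDHGA12 and PCDHGC5 were not matched. Each sequence below runs from 110 bases before the start to 10 from the start on, 5′ to 3′ on the plus strand, with every CGCT in capitals. The 6 alpha windows were chosen because these tested members had the largest fitted values or the most counts, and lie in GRCh38.p14 at chr5:140806958-140807077 (PCDHA4), chr5:140834159-140834278 (PCDHA7), chr5:140868847-140868966 (PCDHA11), chr5:140875198-140875317 (PCDHA12), chr5:140926189-140926308 (PCDHAC1), chr5:140966366-140966485 (PCDHAC2).
PCDHA4: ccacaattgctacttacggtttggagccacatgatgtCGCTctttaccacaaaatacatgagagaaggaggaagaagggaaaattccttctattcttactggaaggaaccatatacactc
PCDHA7: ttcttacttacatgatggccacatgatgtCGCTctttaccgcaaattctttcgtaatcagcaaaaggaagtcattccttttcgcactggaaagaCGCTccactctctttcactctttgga
PCDHA11: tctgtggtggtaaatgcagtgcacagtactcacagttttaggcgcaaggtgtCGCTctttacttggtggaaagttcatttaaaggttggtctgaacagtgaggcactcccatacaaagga
PCDHA12: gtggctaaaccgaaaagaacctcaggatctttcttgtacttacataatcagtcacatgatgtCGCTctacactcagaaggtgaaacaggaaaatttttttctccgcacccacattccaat
PCDHAC1: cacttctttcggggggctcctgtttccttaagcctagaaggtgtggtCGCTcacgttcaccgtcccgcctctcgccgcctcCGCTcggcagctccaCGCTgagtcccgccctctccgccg
PCDHAC2: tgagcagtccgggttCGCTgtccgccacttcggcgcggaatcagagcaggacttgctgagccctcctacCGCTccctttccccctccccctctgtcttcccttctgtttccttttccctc

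The 4 beta windows belong to the most abundant beta gene, the beta gene that fell and the pair of beta genes with the strongest calls in MS023, and lie at chr5:141094505-141094624 (PCDHB2), chr5:141135096-141135215 (PCDHB5), chr5:141177680-141177799 (PCDHB8), chr5:141182277-141182396 (PCDHB16).
PCDHB2: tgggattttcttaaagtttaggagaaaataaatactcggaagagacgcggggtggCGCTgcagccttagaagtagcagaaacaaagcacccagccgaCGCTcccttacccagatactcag
PCDHB5: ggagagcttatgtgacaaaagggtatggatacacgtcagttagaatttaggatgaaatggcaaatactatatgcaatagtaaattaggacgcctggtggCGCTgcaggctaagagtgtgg
PCDHB8: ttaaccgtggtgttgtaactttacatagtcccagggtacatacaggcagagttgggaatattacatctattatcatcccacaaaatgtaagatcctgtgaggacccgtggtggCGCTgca
PCDHB16: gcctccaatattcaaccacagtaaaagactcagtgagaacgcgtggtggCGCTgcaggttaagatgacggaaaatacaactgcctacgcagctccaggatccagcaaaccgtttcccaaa

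The 3 gamma windows belong to the gene called with the smallest p among those that rose with GSK591, to the gene with the largest fitted rise in this cluster, and to the most abundant gamma gene, and lie at chr5:141382632-141382751 (PCDHGA7), chr5:141417567-141417686 (PCDHGB7), chr5:141475856-141475975 (PCDHGC3).
PCDHGA7: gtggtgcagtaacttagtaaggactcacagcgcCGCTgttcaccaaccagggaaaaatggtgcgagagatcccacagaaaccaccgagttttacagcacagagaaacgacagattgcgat
PCDHGB7: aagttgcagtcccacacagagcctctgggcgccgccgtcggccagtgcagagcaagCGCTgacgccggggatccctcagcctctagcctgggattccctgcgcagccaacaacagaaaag
PCDHGC3: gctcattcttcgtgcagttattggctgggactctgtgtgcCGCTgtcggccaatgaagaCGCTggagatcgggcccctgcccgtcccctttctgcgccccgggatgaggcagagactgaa

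CGCT was present on either strand in 45 of the 46 full windows, all but that of PCDHA9, and in 70.0% of 35116 RefSeq promoter windows of the same length. A longer run around the core, found by looking at these sequences, differed by cluster. CACATGATGTCGCT was present on either strand in 7 of 13 alpha windows and no beta or gamma window, and in 0.0199% of all windows, which are the same 7 windows. GGTGGCGCTG was present in 12 of 14 beta windows and no alpha or gamma window, and in 0.276% of all windows. GCCGCTGT was present in 10 of 19 gamma windows, and in 1.63% of all windows. All 3 longer runs contain CGCT or overlap it. In the printed beta windows the shared run lies at different distances from the start: its CGCT begins 11 bases before it in PCDHB5, 61 before it in PCDHB16, and 3 bases after it in PCDHB8. In the printed alpha windows PCDHA4, PCDHA7 and PCDHA12 hold the alpha run, while PCDHA11, PCDHAC1 and PCDHAC2 hold CGCT in other surroundings. A match is a description of letters and says nothing of binding in these cells.

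The 9 libraries held between 31398075 and 51244525 counts, of which the alpha cluster had 1001 to 2260 counts per library, the beta cluster 602 to 1061 and the gamma cluster 770 to 1387. Precision for the members was therefore limited by counts: 35 of the 52 passed the filter on low counts (11 alpha, 12 beta, 12 gamma) and 27 had a mean of at least 0.5 CPM (counts scaled to the library's total, adjusted by TMM factors). GSK591 replicate 3 stood apart with 932.5 CPM of mitochondrial rRNA, against 0.410 to 20.7 CPM in the others. DMSO replicate 1 had the highest of the controls, and the main counts are also given without both libraries. Of the epithelial markers, KRT8 (2984 CPM), KRT18, CDH1, KRT19 (52.1 CPM) and EPCAM (13.5 CPM) were present in DMSO, while NKX2-1 was at 0.0217 CPM. The 6 epithelial markers summed to 4884–5013 CPM in DMSO, 6235–6444 in GSK591 and 3963–4157 in MS023. KRT8 and KRT19 rose with GSK591 and EPCAM fell by 1.07 on the log2 scale. The 10 neuronal marker identifiers summed to 225–231 CPM in DMSO, 327–335 in GSK591 and 167–172 in MS023. SNAP25 (110 CPM in DMSO) led that list, and GAP43 (0.032 CPM) and DCX (0.0673 CPM) were close to 0. With GSK591 5 of the 8 neuronal identifiers tested were higher and 1 lower, and with MS023 1 was higher and 4 lower, against 30.1% and 32.4% of all genes tested with GSK591 and 25.1% and 25.9% with MS023. The part of either marker list in the protocadherin values was not tested. In bulk RNA, fewer expressing cells and less RNA per cell cannot be told apart.

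Per length, PCDHAC2 was the highest clustered protocadherin in DMSO with 3.50 ± 0.11 FPKM (SD, n = 3), followed by PCDHB2 with 2.17 ± 0.30 and PCDHGC3 with 2.15 ± 0.039. The SDs of PCDHB2 and PCDHGC3 overlap. PCDHA4 (1.36), PCDHB5 (1.31), PCDHA12 (0.987), PCDHGB1 (0.940), PCDHAC1 (0.778) and PCDHGA7 (0.738) came next on the FPKM scale. Each cluster thus had 1 leading gene in the controls, 2 of the 3 of them C-type. In GSK591 PCDHA12 reached 2.87 ± 0.078 FPKM and PCDHAC1 2.04 FPKM, so PCDHA12 moved above PCDHB2 (2.50 ± 0.040). In MS023 PCDHAC2 reached 4.97 ± 0.16 FPKM.

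With GSK591 most of the tested alpha and gamma members rose and 1 beta member did. The most abundant alpha gene, PCDHAC2, was not called. The most abundant gamma gene, PCDHGC3, was called lower, a call lost in DESeq2 and in the FPKM fits. Whether the clusters differ was not tested. Of the 35 members tested, 17 rose and 2 fell (edgeR quasi-likelihood test, Benjamini-Hochberg adjusted p under 0.05), against 30.1% of all 18292 genes called higher, 32.4% called lower and 62.6% called in either direction. Of these 19 calls, 9 passed in every other fit at 0.05 that tested them and without each single library. Leaving out a single library ended 7 of the calls, and 3 ended only in other fits. The calls were 8 higher and 0 lower of 11 alpha members, 1 and 1 of 12 beta members, and 8 and 1 of 12 gamma members. The median log2 change of the 35 was 0.50, against 0.006 over all genes tested. PCDHA7, PCDHGA10 and PCDHB4 are among the 35 and raise this median, although the filter kept them through groups where they were high. The median without them was not computed. Without DMSO replicate 1 and GSK591 replicate 3, 15 rose and 1 fell. PCDHA1, PCDHGA6 and PCDHGB6 lost their calls in that fit. The filter on low counts was set anew there, so the 15 need not all be among the 35 members. The count that fell was also 1 without DMSO replicate 2, DMSO replicate 3, GSK591 replicate 2 or GSK591 replicate 3. PCDHA7 and PCDHGA10 passed the filter on low counts only through GSK591, where they were high, so they had to differ. PCDHB4 reached the filter's minimum in no control and passed only through the treated groups, where it was high. Its treated values therefore had to lie above its controls. It is the 1 beta member that rose and stays in the counts that follow. PCDHA6 also reached the minimum in no control, only in 1 GSK591 and 2 MS023 libraries, and was not called. Without PCDHA7 and PCDHGA10, 15 rose and 2 fell, 7 and 0 in the alpha cluster and 7 and 1 in the gamma cluster, and these counts describe the tested members only.

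With MS023 12 of the 35 rose and 1 fell, against 25.1% of all genes called higher, 25.9% called lower and 51.0% in either direction. The calls were 6 higher and 0 lower in the alpha cluster, 5 and 1 in the beta cluster, and 1 and 0 in the gamma cluster. The 5 beta members include PCDHB4, tested only through the treated groups, where it was high. The median log2 change of the 35, PCDHB4 among them, was 0.29, against -0.003 over all genes. Most of these calls were close to the threshold: 3 of the 13 (PCDHAC1, PCDHAC2 and PCDHB8) passed in every other fit and without each single library, and DESeq2 called 5 higher and 0 lower. The 12 higher became 7 without DMSO replicate 3, 5 without MS023 replicate 2 and 7 without MS023 replicate 3. Without DMSO replicate 1 and GSK591 replicate 3 together 12 rose and 0 fell, but not the same 12. In that fit PCDHB14 and PCDHGA5 lost their calls, and PCDHB13 and PCDHGB1 gained one. The comparison of MS023 with GSK591 called 5 members higher and 14 lower in MS023, against 33.6% and 31.7% of all genes (65.4% in either direction). It called 1 higher and 6 lower in the alpha cluster, 3 and 0 in the beta cluster, and 1 and 8 in the gamma cluster. Without PCDHA7 and PCDHGA10, 12 were lower. The 5 higher became 3 without GSK591 replicate 3 or without MS023 replicate 3. Both inhibitor comparisons share the 3 DMSO libraries.

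**Figure D1:**
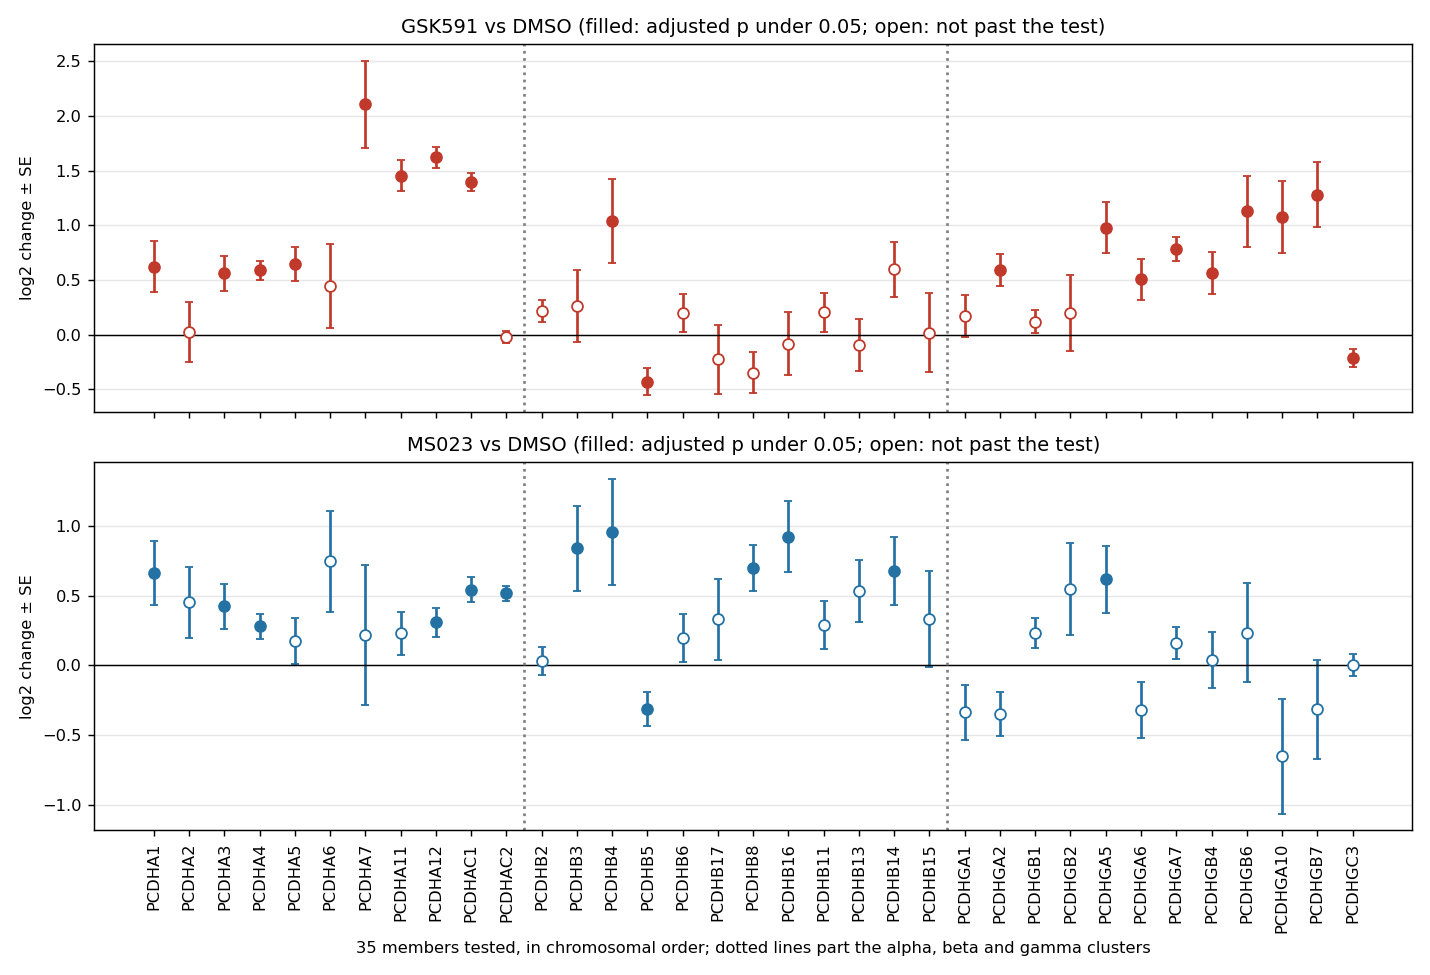
The log2 change (points) and its standard error (lines) of the 35 tested members, in chromosomal order, for GSK591 (top) and MS023 (bottom) against DMSO. Filled points passed the test at an adjusted p under 0.05. Filled points stand above 0 for 8 alpha and 8 gamma members with GSK591, and for 6 alpha and 5 beta members with MS023. They also stand above 0 for the beta gene PCDHB4 with GSK591 and the gamma gene PCDHGA5 with MS023. Below 0 are those of PCDHB5 with both inhibitors and PCDHGC3 with GSK591.

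Summed over its members, the alpha cluster stood at 31.3, 29.6 and 30.4 CPM in the DMSO libraries, 49.4, 50.8 and 49.3 in GSK591 and 39.5, 41.1 and 42.4 in MS023. The groups did not overlap, and the ratio to DMSO was 1.64 with GSK591 and 1.35 with MS023. The beta cluster summed to 19.1, 18.9 and 19.9 CPM in DMSO, 18.7, 19.8 and 21.4 in GSK591 and 20.7, 21.6 and 23.1 in MS023, where DMSO and GSK591 overlapped. The gamma cluster summed to 24.1, 23.8 and 24.9 CPM in DMSO, 30.7, 30.3 and 30.2 in GSK591 and 25.3, 24.0 and 25.97 in MS023. GSK591 stood 1.25 times above DMSO there, and the MS023 libraries overlapped with DMSO. Without DMSO replicate 1 and GSK591 replicate 3 the GSK591 to DMSO ratios were 1.67 (alpha), 0.994 (beta) and 1.25 (gamma). The sums carry no test.

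**Figure D2:**
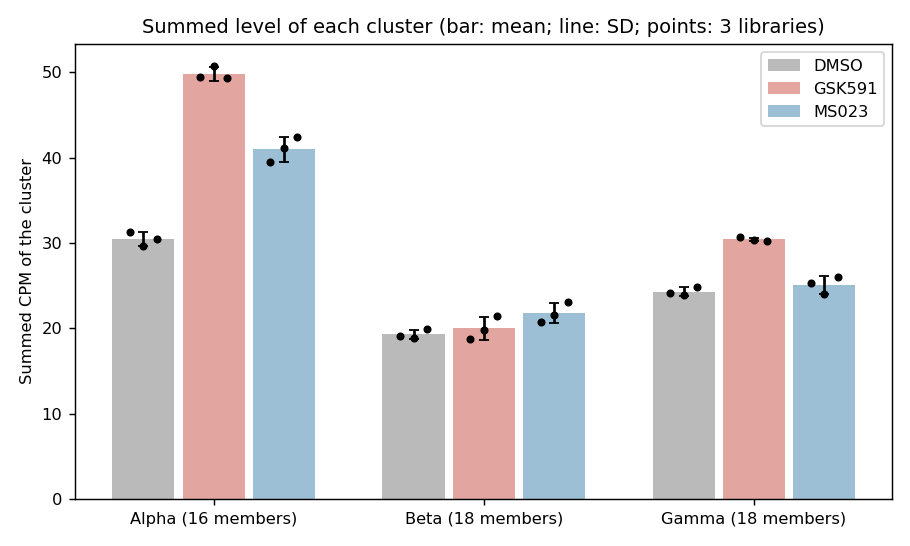
Summed CPM of the members of each cluster, with bars for the mean of 3 libraries, lines for the SD and points for the libraries. The alpha sums of the 3 groups do not overlap, while the beta sums of DMSO and GSK591 and the gamma sums of DMSO and MS023 do.

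In the alpha cluster the strongest changes with GSK591 were in PCDHA11, PCDHA12 and the C-type gene PCDHAC1, which lie towards the end of the cluster. PCDHA12 was measured at 3.47, 3.38 and 2.90 CPM in DMSO, 9.01, 10.4 and 10.4 in GSK591 and 3.84, 4.35 and 3.85 in MS023. All 3 GSK591 libraries stood far above the other 6. PCDHA12 rose 3.08-fold with GSK591 (log2 change 1.62 ± 0.10 SE, edgeR adjusted p = 2.44e-09) and 1.24-fold with MS023 (0.31 ± 0.11, adjusted p = 0.0256), and it was lower in MS023 than in GSK591 (-1.31, adjusted p = 1.09e-08). PCDHA11 stood at 1.63, 1.39 and 1.36 CPM in DMSO, 3.98, 3.86 and 4.06 in GSK591 and 1.52, 2.03 and 1.57 in MS023. The DMSO and MS023 libraries overlapped and GSK591 lay above both. It rose 2.74-fold with GSK591 (log2 1.45 ± 0.14, adjusted p = 4.32e-07), and its MS023 value was 0.23 ± 0.15 (adjusted p = 0.232).

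PCDHAC1, the first of the C-type genes, stood at 3.19, 3.03 and 3.16 CPM in DMSO, 8.39, 8.18 and 8.15 in GSK591 and 4.27, 4.71 and 4.70 in MS023. The 3 groups were fully apart, in the order DMSO, MS023, GSK591. It rose 2.64-fold with GSK591 (log2 1.40 ± 0.08, edgeR adjusted p = 2.11e-09) and 1.46-fold with MS023 (0.54 ± 0.09, adjusted p = 0.000117), with a difference of -0.86 between MS023 and GSK591 (adjusted p = 1.69e-07). PCDHAC2, the other C-type alpha gene and the most highly expressed member, followed another pattern. Its levels were 13.5, 12.8 and 13.7 CPM in DMSO, 13.0, 13.2 and 13.3 in GSK591 and 19.0, 18.3 and 19.9 in MS023. GSK591 overlapped with DMSO and MS023 lay above both. PCDHAC2 rose 1.43-fold with MS023 (log2 0.52 ± 0.05, adjusted p = 2.18e-06) and was 1.45-fold higher in MS023 than in GSK591 (0.54 ± 0.05, adjusted p = 6.24e-07), while the GSK591 value was -0.02 ± 0.06 (adjusted p = 0.77). Its exon neighbour PCDHAC1 was thus higher in GSK591 than in MS023, and PCDHAC2 lower.

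The genes at the start of the alpha cluster changed less. PCDHA4 stood at 4.06, 4.40 and 4.11 CPM in DMSO, 6.46, 6.44 and 6.04 in GSK591 and 4.76, 5.65 and 4.94 in MS023, 3 groups that did not overlap. It rose with GSK591 (log2 0.59 ± 0.09, edgeR adjusted p = 5.03e-05) and with MS023 (0.28 ± 0.09, adjusted p = 0.020). PCDHA3 measured 1.66, 1.32 and 1.62 CPM in DMSO, 2.33, 2.54 and 1.90 in GSK591 and 2.05, 1.82 and 2.26 in MS023, and rose with both (log2 0.56, adjusted p = 0.00791, and 0.42, adjusted p = 0.0416), the first not called in unfiltered FPKM (0.0529). Both inhibitor groups stood above every control and overlapped with each other. PCDHA5 measured 2.16, 1.76 and 1.56 CPM in DMSO, 3.08, 2.82 and 2.59 in GSK591 and 2.03, 1.69 and 2.35 in MS023. It was higher with GSK591 (log2 0.65, adjusted p = 0.00261), and its MS023 value was 0.17 (adjusted p = 0.399). PCDHA1 measured 0.625, 0.434 and 0.562 CPM in DMSO, 0.839, 0.706 and 0.916 in GSK591 and 0.722, 0.937 and 0.893 in MS023, and passed with both inhibitors (log2 0.62, adjusted p = 0.0323, and 0.66, adjusted p = 0.027). PCDHA2 (0.469, 0.585 and 0.605 CPM in DMSO, 0.435, 0.588 and 0.654 in GSK591, 0.624, 0.677 and 1.01 in MS023) passed in no comparison (adjusted p = 0.161 for MS023 against DMSO), although all its MS023 libraries lay above all controls.

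PCDHA7 passed the filter on low counts only through GSK591, the group where it was high, so it had to differ to be tested. It was low in the controls (0.125 to 0.151 CPM) and in MS023 (0.0976 to 0.282 CPM) and stood at 0.590, 0.753 and 0.458 CPM in GSK591. Its fitted value for GSK591 against DMSO (log2 2.11 ± 0.40, edgeR adjusted p = 0.000317) rests on 4 to 7 counts in each control and is given as a description. PCDHA6, the remaining alpha gene tested, reached the filter's minimum in treated libraries only. It had log2 values of 0.45 with GSK591 and 0.75 with MS023 and was called in neither (edgeR adjusted p = 0.38 and 0.109). With GSK591 the call of PCDHA1 ended in DESeq2 (adjusted p = 0.0807), without a filter (0.0663) and in the limma fits of FPKM (up to 0.332), and it ended without DMSO replicate 2, DMSO replicate 3, GSK591 replicate 1 or GSK591 replicate 3 (adjusted p up to 0.116 in those fits). With MS023 the calls ended for PCDHA1 (without DMSO replicate 2, MS023 replicate 2 or 3, adjusted p up to 0.103), PCDHA3 (DMSO replicate 2 or 3, MS023 replicate 1 or 3, up to 0.148), PCDHA4 (DMSO replicate 3 or MS023 replicate 2, up to 0.119) and PCDHA12 (the same pair, up to 0.122). These MS023 calls of PCDHA1, PCDHA3 and PCDHA4 were also lost in DESeq2 (adjusted p from 0.0514 to 0.0733), and those of all 4 genes in each limma fit of FPKM (from 0.0898 to 0.269). In MS023 against GSK591 PCDHA5 (-0.47, adjusted p = 0.0149) lost its call without GSK591 replicate 1 or MS023 replicate 2 (up to 0.0684) and in limma on log2(FPKM + 0.1) (up to 0.0929), and PCDHA4 lost its lower call in the unfiltered fit of the latter (0.0556).

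**Figure D3:**
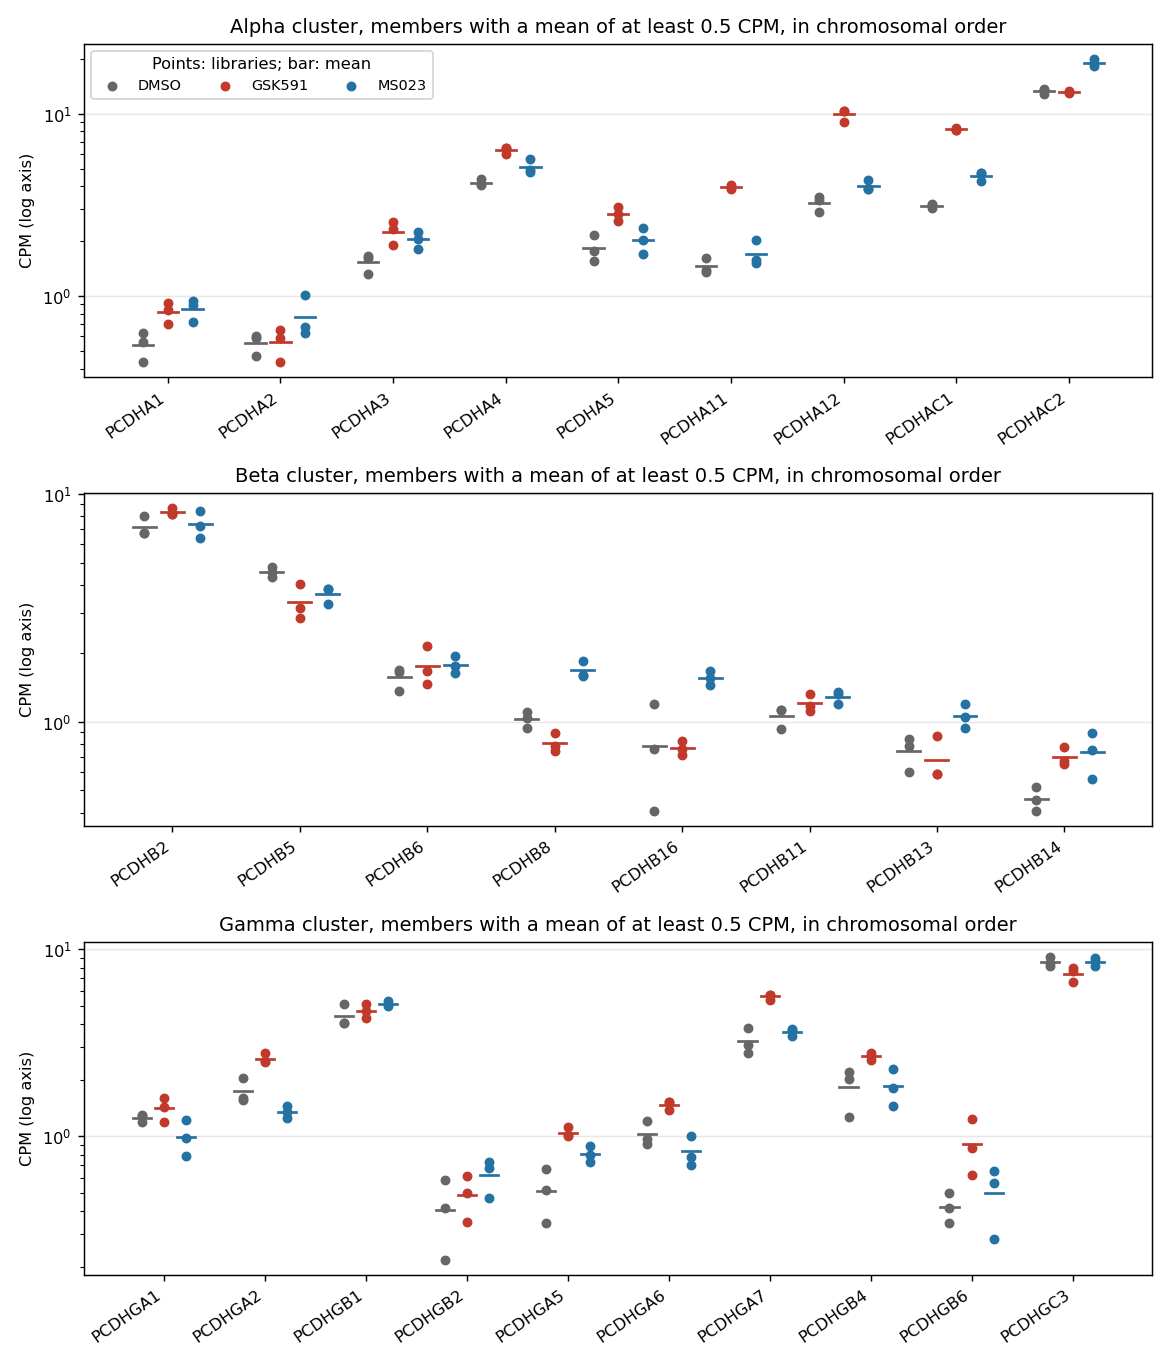
CPM on a log axis in each library (points) and group mean (bars) for the 27 members with a mean of at least 0.5 CPM, by cluster in chromosomal order. PCDHA12 and PCDHAC1 are highest in GSK591, whereas PCDHAC2, PCDHB8 and PCDHB16 are highest in MS023.

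Among the beta genes, which use no shared exons, 5 rose with MS023 and 1 with GSK591, and the neighbours PCDHB8 and PCDHB16 had the smallest p-values. Both counts include PCDHB4, which was tested only through the treated groups. PCDHB8 stood at 0.938, 1.11 and 1.04 CPM in DMSO, 0.745, 0.894 and 0.785 in GSK591 and 1.60, 1.59 and 1.86 in MS023. The 3 groups did not overlap, with GSK591 lowest. PCDHB8 rose 1.62-fold with MS023 (log2 0.70 ± 0.17, edgeR adjusted p = 0.00262) and was 2.07-fold higher in MS023 than in GSK591 (1.05 ± 0.17, adjusted p = 8.48e-05), and its GSK591 value was -0.35 ± 0.19 (adjusted p = 0.12). PCDHB16, the next gene along the chromosome, stood at 0.406, 1.19 and 0.756 CPM in DMSO, 0.714, 0.823 and 0.763 in GSK591 and 1.44, 1.67 and 1.55 in MS023. The controls spread widely, with DMSO replicate 1 lowest, and all MS023 libraries lay above the other 6. PCDHB16 rose 1.89-fold with MS023 (log2 0.92 ± 0.26, adjusted p = 0.00745), against -0.08 with GSK591 (adjusted p = 0.818). In limma fits of log2(FPKM + pseudocount) its MS023 call was lost (adjusted p up to 0.0829), with group means of 0.122 FPKM in DMSO and 0.233 in MS023.

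PCDHB2, the most abundant beta gene, passed in no comparison. It stood at 6.75, 6.72 and 8.02 CPM in DMSO, 8.14, 8.14 and 8.68 in GSK591 and 6.42, 7.23 and 8.41 in MS023. The GSK591 libraries all lay above the controls, the highest control by little, and the log2 value was 0.21 ± 0.10 (edgeR adjusted p = 0.0793), and the gene was called when DMSO replicate 3 was left out (0.30, adjusted p = 0.0265) and when MS023 replicate 3 was (adjusted p = 0.0398). In the latter fit it was also lower in MS023 than in GSK591 (-0.30, adjusted p = 0.0149). PCDHB5 stood at 4.78, 4.34 and 4.54 CPM in DMSO, 3.17, 2.85 and 4.03 in GSK591 and 3.82, 3.30 and 3.81 in MS023. All treated libraries were below all controls. PCDHB5 fell by 0.43 on the log2 scale with GSK591 (adjusted p = 0.00817) and by 0.31 with MS023 (adjusted p = 0.0473). The first call ended without GSK591 replicate 2 (adjusted p = 0.0512), and the second without any one of the DMSO or MS023 libraries or without GSK591 replicate 1 (up to 0.158).

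Low beta genes made up the other beta calls. PCDHB3 (0.344, 0.412 and 0.324 CPM in DMSO, 0.488, 0.807 and 0.682 in MS023) rose with MS023 (log2 0.84 ± 0.30, edgeR adjusted p = 0.0315). Its difference from GSK591 (0.497, 0.541 and 0.283 CPM) passed without MS023 replicate 1 (0.78, adjusted p = 0.0468). PCDHB4 (0.108 to 0.219 CPM in DMSO) reached the filter's minimum in no control and was tested only through the treated groups, where it was high. Its fitted values, given as a description, were 1.04 ± 0.38 for GSK591 (edgeR adjusted p = 0.028) and 0.96 ± 0.38 for MS023 (adjusted p = 0.0474). PCDHB14 (0.406, 0.455 and 0.519 CPM in DMSO, 0.652, 0.776 and 0.676 in GSK591, 0.898, 0.755 and 0.564 in MS023) rose with MS023 (0.68 ± 0.25, adjusted p = 0.033), and its GSK591 value of 0.60 had an adjusted p of 0.0528, or 0.0482 without MS023 replicate 3. PCDHB13 (0.844, 0.780 and 0.605 CPM in DMSO, 0.590, 0.870 and 0.589 in GSK591, 1.05, 0.937 and 1.20 in MS023) was higher in MS023 than in GSK591 (0.63, adjusted p = 0.0226). Its value against DMSO (0.53, adjusted p = 0.0566) passed without DMSO replicate 1 (0.0481) or GSK591 replicate 2 (0.0469). None of these low beta calls held without each library: PCDHB4 with GSK591 ended without DMSO replicate 2, GSK591 replicate 1 or 2 (adjusted p up to 0.12), and PCDHB13 without GSK591 replicate 1 or 3 or MS023 replicate 3 (up to 0.096). With MS023, PCDHB3 ended without DMSO replicate 1 or 3 or MS023 replicate 2 or 3 (up to 0.131), PCDHB14 without DMSO replicate 1 or 2 or MS023 replicate 1 or 2 (up to 0.17), and PCDHB4 without DMSO replicate 2 or 3, GSK591 replicate 2 or any MS023 library (up to 0.182). DESeq2 called none of PCDHB3, PCDHB4, PCDHB13 and PCDHB14 in these comparisons (adjusted p from 0.0563 to 0.125), nor PCDHB5 with MS023 (0.0598).

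PCDHB6 (1.69, 1.65 and 1.36 CPM in DMSO, 1.46, 1.67 and 2.16 in GSK591, 1.76, 1.95 and 1.65 in MS023) and PCDHB11 (1.13, 0.932 and 1.12 CPM in DMSO, 1.12, 1.18 and 1.33 in GSK591, 1.35, 1.33 and 1.20 in MS023) passed in no comparison, with log2 values from -0.00 to 0.29. PCDHB15 (0.427 CPM over all libraries) and the pseudogene PCDHB17 (0.403 CPM) passed in none either. With PCDHB2, 5 of the 12 beta genes tested passed in no comparison.

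In the gamma cluster 8 of the 11 A and B type variable genes tested were called higher with GSK591, PCDHGA10 among them, while PCDHGC3, the C-type gene tested, did not rise. PCDHGA7 stood at 2.78, 3.08 and 3.80 CPM in DMSO, 5.72, 5.39 and 5.73 in GSK591 and 3.71, 3.46 and 3.74 in MS023. All GSK591 libraries lay above the rest, and DMSO and MS023 overlapped. It rose 1.72-fold with GSK591 (log2 0.79 ± 0.11, edgeR adjusted p = 2.06e-05) and was lower in MS023 than in GSK591 (-0.62, adjusted p = 0.000133). The MS023 value against DMSO was 0.16 (adjusted p = 0.257) and passed without DMSO replicate 3 (0.30, adjusted p = 0.0413). PCDHGA2 stood at 2.06, 1.56 and 1.60 CPM in DMSO, 2.80, 2.52 and 2.51 in GSK591 and 1.25, 1.35 and 1.46 in MS023, fully apart in the order MS023, DMSO, GSK591. With GSK591 it rose (log2 0.59, adjusted p = 0.00256), its MS023 value was -0.35 (adjusted p = 0.0802), and the difference between inhibitors was -0.94 (adjusted p = 5.9e-05).

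PCDHGA5 measured 0.344, 0.672 and 0.519 CPM in DMSO, 1.12, 1.01 and 1.00 in GSK591 and 0.800, 0.729 and 0.893 in MS023. Both inhibitor groups stood above the controls. It rose with GSK591 (log2 0.98 ± 0.23, edgeR adjusted p = 0.00211) and with MS023 (0.62, adjusted p = 0.0444), the gamma gene called with MS023 in this fit, and this second call ended without DMSO replicate 1 or 3, GSK591 replicate 2 or any MS023 library (up to 0.138). PCDHGA6 measured 0.907, 1.21 and 0.972 CPM in DMSO, 1.52, 1.39 and 1.53 in GSK591 and 0.781, 0.703 and 1.01 in MS023. It was higher in GSK591 than in MS023 (-0.83 for MS023 against GSK591, adjusted p = 0.0016), and its rise against DMSO (0.50, adjusted p = 0.0299) ended without DMSO replicate 1 or 3 or GSK591 replicate 1 or 3 (up to 0.0874). PCDHGA1 measured 1.19, 1.28 and 1.30 CPM in DMSO, 1.43, 1.20 and 1.61 in GSK591 and 0.976, 0.781 and 1.22 in MS023. It was lower in MS023 than in GSK591 (-0.51, adjusted p = 0.0342), a call that ended without GSK591 replicate 1 or 3 or MS023 replicate 1 or 2 (up to 0.139). DESeq2 and the FPKM fits called none of these changes of PCDHGA1, PCDHGA6 against DMSO and PCDHGA5 with MS023 (adjusted p from 0.0573 to 0.279). PCDHGA10 likewise passed the filter only through GSK591 and had to differ to be tested. It was low in the controls (0.152 to 0.194 CPM), stood at 0.435, 0.329 and 0.327 CPM in GSK591 and was at most 0.130 CPM in MS023. Its fitted values, given as a description, were 1.07 ± 0.33 for GSK591 against DMSO (adjusted p = 0.0106) and -1.73 ± 0.36 for MS023 against GSK591 (adjusted p = 0.000595), and DESeq2 and the fit without a filter did not call the first (adjusted p up to 0.0738).

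Among the B type genes, PCDHGB7 stood at 0.250, 0.217 and 0.346 CPM in DMSO, 0.528, 0.753 and 0.698 in GSK591 and 0.273, 0.208 and 0.165 in MS023. GSK591 lay above the rest and the other groups overlapped. PCDHGB7 rose 2.43-fold with GSK591 (log2 1.28 ± 0.29, edgeR adjusted p = 0.00152) and was lower in MS023 than in GSK591 (-1.60 ± 0.30, adjusted p = 0.000288). In limma on log2(FPKM + pseudocount) with a filter the rise was not called (up to 0.0602). PCDHGB4 measured 2.22, 2.02 and 1.28 CPM in DMSO, 2.80, 2.68 and 2.57 in GSK591 and 1.81, 1.46 and 2.28 in MS023. It rose with GSK591 (0.56 ± 0.20, adjusted p = 0.0211), a call lost without DMSO replicate 3 (0.116), and was lower in MS023 than in GSK591 (-0.53, adjusted p = 0.0262), lost without GSK591 replicate 1 or 2 or MS023 replicate 1 or 2 (up to 0.104). PCDHGB6 measured 0.344, 0.412 and 0.497 CPM in DMSO, 0.621, 0.870 and 1.24 in GSK591 and 0.566, 0.651 and 0.282 in MS023. With GSK591 it rose (1.13 ± 0.32, adjusted p = 0.00722), a call lost without GSK591 replicate 3, the library with high mitochondrial rRNA (0.0511), and its difference between inhibitors (-0.90, adjusted p = 0.0202) was lost without GSK591 replicate 3 or MS023 replicate 3 (up to 0.14). PCDHGB1 (5.10, 4.03 and 4.06 CPM in DMSO, 4.32, 4.66 and 5.12 in GSK591, 4.96, 5.07 and 5.31 in MS023) and PCDHGB2 (0.219, 0.412 and 0.583 CPM in DMSO, 0.497, 0.611 and 0.349 in GSK591, 0.468, 0.677 and 0.729 in MS023) passed in no comparison. PCDHGB1 had a log2 value of 0.23 with MS023 (adjusted p = 0.0821), which passed without DMSO replicate 1 (0.35, adjusted p = 0.0108).

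PCDHGB3 was analysed in FPKM only. Its values were 0.265, 0.285 and 0.303 FPKM in DMSO, 0.502, 0.616 and 0.540 in GSK591 and 0.232, 0.204 and 0.201 in MS023, and the groups did not overlap. With limma on log2(FPKM + 0.1), PCDHGB3 rose by 0.76 with GSK591 (adjusted p = 0.00584), where 17.9% of 20797 genes were called higher. It was lower in MS023 than in GSK591 (-1.06, adjusted p = 0.000764), where 19.3% of genes were called lower. PCDHGA4 (means of 0.161, 0.190 and 0.226 FPKM in DMSO, GSK591 and MS023) and PCDHGA9 (0.101, 0.134 and 0.121) passed in no such comparison (limma adjusted p from 0.446 to 0.801).

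PCDHGC3, the most abundant gamma gene, stood at 8.13, 8.41 and 9.14 CPM in DMSO, 7.95, 7.62 and 6.67 in GSK591 and 8.995, 8.14 and 8.63 in MS023. GSK591 lay just below the controls and MS023 overlapped with them. PCDHGC3 fell by 0.22 on the log2 scale with GSK591 (edgeR adjusted p = 0.0315) and was 0.22 higher in MS023 than in GSK591 (adjusted p = 0.0269). DESeq2 called neither (adjusted p = 0.0696 and 0.0621), the first ended without DMSO replicate 2 or 3 or GSK591 replicate 3 (adjusted p up to 0.238) and the second without GSK591 replicate 3 or MS023 replicate 1 or 3 (up to 0.165). The first was lost in every FPKM fit too, with -0.15 in filtered limma on log2(FPKM + 0.1) (adjusted p = 0.268). It was also lost with total-count scaling, with the 1 CPM filter and with the 6 libraries compared alone. On the FPKM scale the second difference was near 0 (adjusted p up to 0.988), with means of 1.93 FPKM in GSK591 and 1.94 in MS023.

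The make-up of each cluster differed with GSK591. PCDHAC2 held 43.8% ± 1.1 of the alpha counts in DMSO, 26.4% ± 0.50 in GSK591 and 46.5% ± 1.8 in MS023 (SD, n = 3). PCDHA12 held 10.7% ± 1.0, 19.9% ± 1.5 and 9.80% ± 0.75, and PCDHAC1 10.3% ± 0.091, 16.5% ± 0.43 and 11.1% ± 0.32. In GSK591 the shares of PCDHA12 and PCDHAC1 were larger and that of PCDHAC2 smaller than in every library of the other groups. PCDHGC3 held 35.3% ± 1.5 of the gamma counts in DMSO, 24.4% ± 2.0 in GSK591 and 34.2% ± 1.2 in MS023, while PCDHGA7 held 13.3% ± 1.9, 18.5% ± 0.63 and 14.5% ± 0.12. In the beta cluster PCDHB5 held 23.6% ± 1.2, 16.7% ± 2.3 and 16.8% ± 1.6, and PCDHB16 4.08% ± 2.1, 3.84% ± 0.29 and 7.13% ± 0.52. These are shares of counts, which do not correct for gene length, and carry no test.

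**Figure D4:**
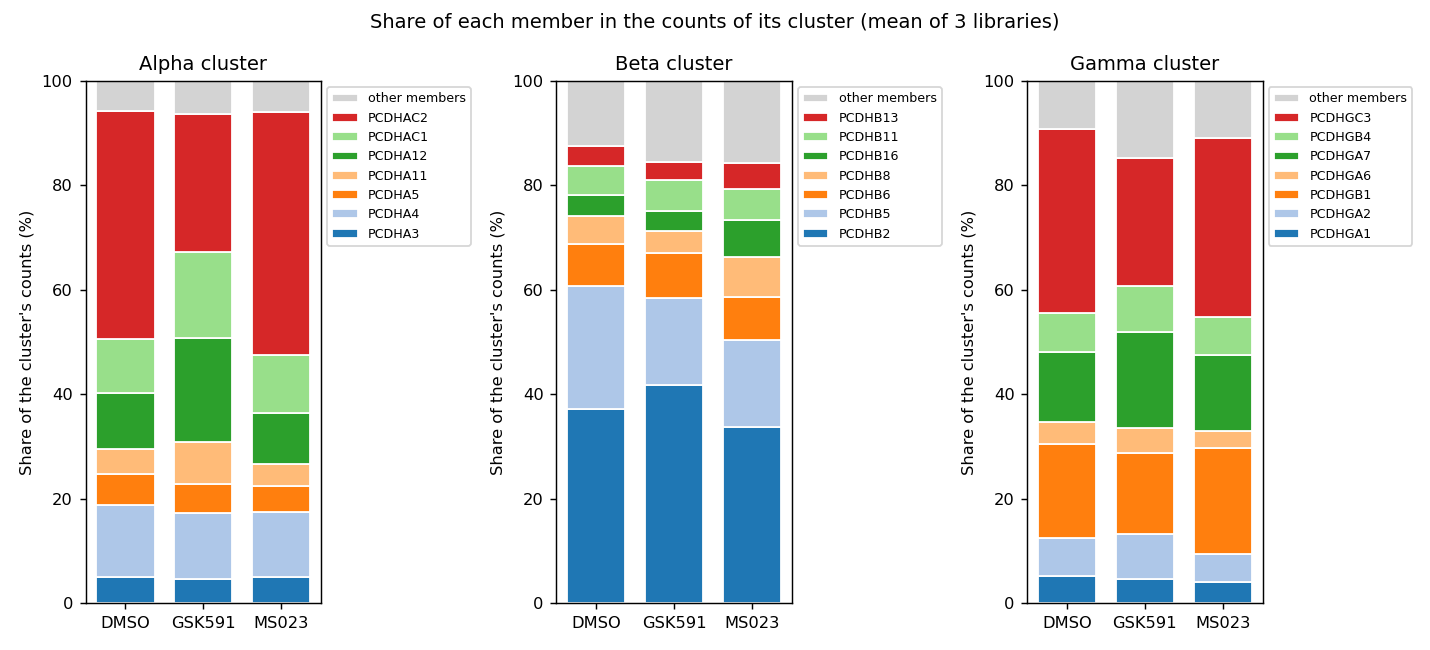
Mean share of each member in the counts of its cluster, in percent, for DMSO, GSK591 and MS023 (3 libraries each). Members that reach at least 4% in a group have their own colour. PCDHAC2 takes 43.8% of alpha counts in DMSO, 26.4% in GSK591 and 46.5% in MS023.

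The 17 members that did not pass the filter had at most 19 counts in a library and means up to 0.195 CPM: PCDHA8, PCDHA9, PCDHA10, PCDHA13, PCDHA14, PCDHB1, PCDHB7, PCDHB9, PCDHB10, PCDHB12, PCDHB18, PCDHGA3, PCDHGA8, PCDHGA11, PCDHGA12, PCDHGC4 and PCDHGC5. Their mean CPM was above DMSO in 14 with GSK591 (below in 1, equal in 2) and in 9 with MS023 (below in 7), with no test. The share over all genes as low as these was not computed, so the counts are no result about the members. Without a filter the median log2 change over all genes with GSK591 was 0.059, against 0.006 in the main fit. PCDHA13 had means of 0.0641 CPM in DMSO, 0.314 in GSK591 and 0.144 in MS023. PCDHA14 had 0 counts in all 9 libraries, which allows up to 3 counts per library, or 0.0585 to 0.0955 CPM, for counting error only, while its deposited FPKM were 0.155 in GSK591 replicate 1 and 0.0411 and 0.0600 in MS023 replicates 2 and 3, so the files differ on it. PCDHGC4, the C-type gene known for its role in neuron survival, had means of 0.0353, 0.145 and 0.131 CPM.

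Genes that act on or with the clusters, and their neighbours, were taken as lists. CTCF, cohesin and related factors (CTCF anchors loops that the ring complex cohesin extrudes) had 1 of 13 higher and 9 lower with GSK591 and 2 higher and 6 lower with MS023, with median log2 changes of -0.27 and -0.06. Over all genes tested 30.1% were higher and 32.4% lower with GSK591, and 25.1% and 25.9% with MS023. RAD21, the cohesin kleisin subunit, fell by 0.74 on the log2 scale with GSK591 (edgeR adjusted p = 3.47e-10), and SMC3, a cohesin ring subunit, by 0.56. CTCF itself fell by 0.26 with GSK591 (edgeR adjusted p = 3.02e-06). REST, a repressor of neuronal genes and the 1 listed factor that was higher with GSK591, rose by 0.14. With MS023 PDS5A (0.14) and CTCF (0.09) rose and PDS5B fell by 0.21 and SMC1A by 0.18. RAD21 (0.64) and PDS5A (0.45) were higher in MS023 than in GSK591, and MAU2 (-0.12) and REST (-0.09) lower.

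Silencing factors had 3 of 20 higher and 14 lower with GSK591 and 7 higher and 3 lower with MS023 (all genes 30.1% and 32.4%, then 25.1% and 25.9%). The list also holds TET1, TET2 and TET3, which are not silencers, so the counts mix functions. With GSK591 TET3 is among the 3 higher and TET1 and TET2 among the 14 lower. With MS023 TET2 and TET3 are among the 7 higher. TET3, a methylcytosine dioxygenase, rose with both (0.23 and 0.24), and CBX3, a heterochromatin protein, fell with both (by 0.53 and by 0.31). ATF7IP rose by 0.20 with GSK591 and SUV39H1, a histone methyltransferase, fell by 0.51. UHRF1, which directs maintenance of DNA methylation, rose by 0.33 with MS023 (adjusted p = 4.17e-05, edgeR), and LRIF1, a partner of SMCHD1, fell by 0.77. UHRF1 (0.79) and EZH2 (0.61) were higher in MS023 than in GSK591, LRIF1 (-0.49) and ATF7IP (-0.15) lower.

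Binding partners of the cytoplasmic domains and the proteases that cleave the proteins had 3 of 22 higher and 15 lower with GSK591 and 7 higher and 8 lower with MS023 (all genes 30.1% and 32.4%, then 25.1% and 25.9%). CYFIP2, a subunit of the WAVE actin regulator, rose with GSK591 (log2 1.70, edgeR adjusted p = 1.68e-12, 41.7 to 135 CPM), as did the kinase FYN (1.26), while APH1A, a gamma-secretase subunit, and the kinase PTK2B fell by 0.52 each. With MS023 the receptor kinase RET rose by 1.32 and FYN by 0.35, and PTK2B fell by 0.85 and APH1B by 0.80. Between the inhibitors, RET (1.27) and WASF1 (0.52) were higher in MS023 and CYFIP2 (-1.45) and FYN (-0.91) lower.

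Unclustered protocadherins, relatives outside the clusters, had 2 of 7 higher and 3 lower with GSK591 and 3 higher and 1 lower with MS023, shares of a list of 7 beside 30.1% and 32.4%, then 25.1% and 25.9%, of all genes. PCDH1 (0.22 and 0.81) and PCDH12 (0.56 and 0.90) rose with both inhibitors, GSK591 given first. PCDH20 fell with both, by 1.37 and by 0.79, and PCDH17 fell by 1.79 with GSK591 (edgeR adjusted p = 8.92e-07). PCDH17 (1.74) and PCDH9 (0.78) were higher in MS023 than in GSK591. Of 38 other genes within 300 kb of the clusters, 22 were tested, with 5 higher and 9 lower with GSK591 and 7 higher and 5 lower with MS023, near the shares of all genes (30.1% and 32.4%, then 25.1% and 25.9%). RELL2 rose with both (0.73 and 0.71), APBB3 rose by 0.60 with GSK591 and fell by 0.40 with MS023, and FCHSD1 rose by 0.25 with MS023. TMCO6 fell by 0.46 and ZMAT2 by 0.40 with GSK591, and CD14 fell by 0.37 with MS023. ANKHD1-EIF4EBP3 (0.76) and SLC35A4 (0.48) were higher in MS023 than in GSK591, and APBB3 (-0.999) and FCHSD1 (-0.24) lower. The neighbours' median log2 changes were -0.13 and 0.04, against 0.50 and 0.29 for the clustered genes tested. The latter medians include PCDHA7, PCDHGA10 and PCDHB4, which passed the filter through groups where they were high. Whether the clustered genes differ from their neighbours was not tested.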

How the data were processed

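RNA was measured in 9 libraries, 3 per group. The labels give paired-end libraries of total RNA, rRNA-depleted and primed with random hexamers. The authors deposited read counts per gene and FPKM tables in the layout of Cufflinks. Per the submitters' processing notes cutadapt, STAR, featureCounts, DESeq2 and hg19 were used; for versions, annotation, strand and overlap settings: not given in the sources used here. There were 51796 gene identifiers with counts and 57751 with FPKM.

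Counts were fitted in R 4.3.3 with edgeR 4.0.16: filterByExpr (minimum count 10, minimum total 15; 18292 genes kept), TMM scaling, a quasi-likelihood fit of group over all 9 libraries, and Benjamini-Hochberg adjustment over all genes, with calls at 0.05. Changes are log2 ± SE; CPM are TMM-scaled. The fit was tested on simulated data, with changes placed only in genes above a mean of 1 CPM and the same spread for all genes. That test does not cover the members below this level. Alternatives used DESeq2 1.42.0, limma 3.58.1 on log2(FPKM + 1) or log2(FPKM + 0.1), which understates changes of low genes, other scalings and filters, a replicate block and left-out libraries. Depth was 31398075 to 51244525 counts.

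The members and lists were chosen with earlier results of these data known. Members with a mean of at least 0.5 CPM are given in every library, others if called, the rest as ranges. Of each other list the 2 largest called changes each way per comparison are named, and CTCF also with GSK591. Promoters are from RefSeq (GRCh38.p14), other positions hg19.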

Additional observations from a re-analysis of the deposited data

Results flagged for a closer look

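PCDHGB3, a gamma B type gene analysed in FPKM only and so outside the count comparisons, had a mean of 0.553 FPKM in GSK591, above its control mean of 0.284 FPKM. Its locus overlaps other gamma genes.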

How the results depend on the processing

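No result changed direction while called: of 1966 values for 32 named members under the alternatives, 0 called values reversed, 197 lost and 19 gained a call. With GSK591, 17 members rose in the main fit, and 11 did with the filter of 1 CPM in 3 libraries, which tests fewer genes. The count of 2 that fell was 1 with total-count scaling, the 1 CPM filter, DESeq2, the 6 libraries compared alone, all 3 FPKM fits, an adjusted p of 0.01 and without both DMSO replicate 1 and GSK591 replicate 3. The 12 that rose with MS023 became 7 (1 CPM filter), 5 (DESeq2), 3 (each FPKM fit) and 4 (adjusted p of 0.01), and the 1 that fell became 0 with total-count scaling, no filter, DESeq2, the FPKM fits, 0.01 and without both libraries. The 5 higher in MS023 than in GSK591 became 3 (1 CPM filter, DESeq2, 2 FPKM fits, 0.01, without both libraries) and 2 (filtered log2(FPKM + 0.1)). The cause was not tested. Leaving out 1 library gave 15 to 23 higher and 1 to 2 lower with GSK591, 5 to 12 higher and 0 to 1 lower with MS023, and 3 to 5 higher and 12 to 17 lower for MS023 against GSK591. The filter on low counts was set anew in each of these fits, so members not tested in the main fit could enter. These ranges therefore do not describe a fixed set of members and do not show how stable the main calls are. With total counts the summed CPM of the alpha cluster in GSK591 was 50.8, and of the gamma cluster 23.7 in DMSO and 31.0 in GSK591.

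Same-numbered libraries did not deviate together throughout: over 9 such pairs the correlation of deviations ran from -0.43 to 0.26 and was over 0.1 in 2. Different-numbered pairs reached 0.35 (DMSO 1 with GSK591 3) and -0.43 (DMSO 1 with GSK591 2). Deviations from a mean of 3 libraries offset each other, so these values cannot decide whether libraries were paired. With the replicate block 18 members rose and 2 fell with GSK591, 8 rose and 1 fell with MS023, and 5 were higher and 14 lower in MS023 than in GSK591. Low counts limit members under 0.5 CPM.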
